A study of Homo sapiens with 9 samples.

Results

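The genes described here encode the TGF-beta ligands TGFB1, TGFB2 and TGFB3, the receptors TGFBR1, TGFBR2 and TGFBR3, the latency proteins LTBP2 and LTBP3, and TGFBI and PMEPA1, which are textbook target genes of the pathway. They were chosen by name, with earlier results of these data known, so counts of them beside shares of all probe sets only describe. All probe sets whose symbol in the platform annotation is one of these 10 genes were taken, whatever their values. This gave 15 probe sets of 22215, for 10 of 11963 gene symbols. TGFB2 had 4 probe sets, TGFB1 and TGFBR2 had 2 each, and the other genes had 1.

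RNA came from MDA-MB-231, a human breast cancer line of basal, mesenchymal-like type that was derived from a metastasis. The cells carried a lentiviral pLKO hairpin vector stably, were grown in DMEM with 10% fetal bovine serum, and differed in the hairpin: a control hairpin (scramble), hairpin #2 against Coco (shco2) or hairpin #4 against Coco (shco4). Each line had 3 biological replicates, and each replicate gave 1 Affymetrix 3′ array made from 200 ng of total RNA, so 9 arrays were compared. Coco, the product of DAND5, is a secreted antagonist of BMP, Nodal and activin ligands; its own level was not analysed, since the platform annotation gave that symbol to no probe set. The labels do not say whether a line is 1 clone or a pool, or whether its replicates were separate transductions. Each hairpin is 1 line, and a difference between lines cannot be told apart from a difference between hairpins. The p-values measure the spread between these arrays, and in RNA from whole cultures fewer expressing cells and less RNA per cell cannot be told apart.

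TGF-beta ligands are secreted in a latent form, held by their own propeptide and by latent TGF-beta binding proteins such as LTBP3 that anchor it in the extracellular matrix. The active ligand binds TGFBR2, which recruits and phosphorylates the kinase TGFBR1, and TGFBR1 then phosphorylates SMAD2 and SMAD3; TGFBR3, or betaglycan, is a co-receptor that presents ligand, TGFB2 above all. In breast cancer lines of mesenchymal type the pathway is known for its link to migration and metastasis, and TGFBI, a secreted matrix protein, and PMEPA1, a membrane protein that dampens Smad signalling, are among its common readouts.

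Promoter stretches are not shown for every gene that differed between the lines: LTBP3 and TGFBR1, for example, matched 2 and 8 RefSeq entries. Those of TGFB2, TGFBI and TGFBR3, with 1 entry each, are shown, so that the letters in front of each start are at hand. They are the 250 bases before the RefSeq start, build GRCh38.p14, at chr1:218345086-218345335 (plus strand), chr5:136028738-136028987 (plus strand) and chr1:91886152-91886401 (minus strand). Capitals mark matches to CAGAC (the Smad box) or CACGTG (an E-box), searched on both strands, together with TGAGTCA (an AP-1 site).
TGFB2: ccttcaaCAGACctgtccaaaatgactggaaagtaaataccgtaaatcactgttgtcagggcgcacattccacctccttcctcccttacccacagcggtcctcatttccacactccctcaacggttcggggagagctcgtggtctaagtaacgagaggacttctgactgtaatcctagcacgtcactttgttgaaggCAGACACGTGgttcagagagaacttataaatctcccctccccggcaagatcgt
TGFBI: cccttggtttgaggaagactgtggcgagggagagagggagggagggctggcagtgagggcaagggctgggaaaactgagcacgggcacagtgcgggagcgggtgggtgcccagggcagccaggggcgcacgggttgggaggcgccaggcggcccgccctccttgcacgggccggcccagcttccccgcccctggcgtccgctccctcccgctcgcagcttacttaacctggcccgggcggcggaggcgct
TGFBR3: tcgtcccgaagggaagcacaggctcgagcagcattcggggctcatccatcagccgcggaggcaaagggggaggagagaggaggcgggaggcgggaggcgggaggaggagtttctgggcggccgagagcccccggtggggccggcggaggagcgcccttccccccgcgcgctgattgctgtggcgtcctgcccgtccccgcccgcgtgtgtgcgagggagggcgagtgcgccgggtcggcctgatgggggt
The TGFB2 stretch held 2 Smad boxes and 1 E-box, which shares letters with the second Smad box, and its GC content was 50.4%. The TGFBI and TGFBR3 stretches held none of the 3 motifs, at a GC content of 72.8% and 73.6%. Of 35116 RefSeq promoter entries of this length, 38% held a Smad box, 4.2% an AP-1 site and 6.34% an E-box. All 10 genes matched a RefSeq entry, 5 of them a single one. TGFB1 and LTBP2 are among these 5 but are not shown, and their stretches held none of the 3 motifs either. These matches describe letters only and were not set against the expression values.

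Intensities are the authors' values, scaled per array to a common mean. Array medians lay between 122 and 130, arrays of 1 line correlated at r = 0.986 to 0.992 across probe sets and arrays of different lines at 0.96 to 0.98, and no 2 arrays were identical. The line's own markers were bright on all 9 arrays: VIM lay between 9517 and 13135 and CD44 between 3468 and 7082. AXL lay between 1829 and 9928, MSN between 1931 and 4947 and CAV1 between 3452 and 10093. The markers did not move as one: AXL differed from scramble by -2.11 ± 0.11 on the log2 scale with shco4 (limma adjusted p = 0.000248), where CD44 rose by 0.36 ± 0.06 (adjusted p = 0.011). With shco2, CAV1 differed by -1.37 ± 0.07 (limma adjusted p = 0.000192), MSN by -1.20 ± 0.09 (adjusted p = 0.000563), CD44 by -0.52 ± 0.06 (adjusted p = 0.00273) and VIM by -0.32 ± 0.04 (adjusted p = 0.00233). The summed level of the 5 such markers was 40252 to 41761 in scramble, 26803 to 28051 with shco2 and 33786 to 36460 with shco4. Of the markers expected to be low, PGR and ESRP1 were under 16 on all arrays, ESR1 was 23.2 to 54.1, CDH1 28.0 to 243 and EPCAM 219.9 to 610. The sum of these 5 was 644 to 754, 568 to 613 and 471 to 518 in the same order. Its members moved in opposite directions. CDH1 differed from scramble by -1.37 ± 0.32 with shco2 (limma adjusted p = 0.0258) and was 2.53 ± 0.32 higher with shco4 than with shco2 (adjusted p = 0.00148). With shco4, EPCAM differed from scramble by -1.30 ± 0.07 (adjusted p = 0.000266) and ESR1 by 0.77 ± 0.20 (adjusted p = 0.0439). The 4 fibroblast markers summed to 122 to 146 in scramble, 70.8 to 131 with shco2 and 219 to 385 with shco4, where LUM made up most of the sum, while COL3A1 was under 16 on 6 arrays and DCN did not exceed 52.5. The 3 endothelial markers summed to at most 77.1 and the 2 leukocyte markers measured to at most 57.2, with VWF under 16 on all arrays. The 3′ to 5′ ratio of ACTB was 1.07 to 1.10 in scramble, 1.08 to 1.11 with shco2 and 1.12 to 1.14 with shco4. The same ratio of GAPDH was 0.868 to 0.958, 0.878 to 0.939 and 0.882 to 0.904, with all 3 lines overlapping. The endothelial and leukocyte sums overlapped across the lines as well. The sums of both MDA-MB-231 marker lists differed between all 3 lines without overlap, and the fibroblast sum and the ACTB ratio were higher with shco4 than in both other lines, which overlapped. The part of these in the results was not tested.

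The members differed most between the 2 hairpin lines. In the limma model over all 9 arrays, with p-values adjusted by Benjamini-Hochberg over 22215 probe sets and calls at an adjusted p under 0.05, 9 of the 15 probe sets were higher and 1 was lower with shco4 than with shco2. In that comparison 31% of all probe sets were called, 14.9% as higher and 16.1% as lower. Against scramble, 3 of 15 passed with shco2, all as lower, where 20.7% of all probe sets were called, 10.7% as higher and 9.95% as lower. With shco4, 1 was higher and 1 lower, where 18.8% were called, 9.05% as higher and 9.75% as lower. The median log2 difference of the 15 probe sets was -0.54 for shco2 against scramble, 0.28 for shco4 against scramble and 0.66 for shco4 against shco2, and the median over all probe sets was 0 in each. The mean of both hairpins against scramble called 1 of 15, as lower, where 14.1% of all probe sets were called and 7.39% were lower. The arrays of the lines did not overlap in 8 of 15 probe sets for shco2 against scramble, 5 of 15 for shco4 against scramble and 11 of 15 between the hairpins, against 35.8%, 32.6% and 40.9% of all probe sets. In a fit that takes replicate numbers as blocks, 6, 3, 2 and 10 of the 15 were called for shco2, shco4, their mean and shco4 against shco2, where 24.1%, 22.1%, 17.2% and 34.1% of all probe sets were called. The shares of all probe sets, here and below, are held down by dim probe sets. Values below a floor of 16 were not told apart, and 2611 probe sets lay at it on all arrays, where no difference can show. Among the members, only TGFB2 (220406_at) had arrays under this floor. Shares among probe sets of like brightness were not computed. The comparisons with scramble share the scramble arrays, and the members' values in each are given side by side below.

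**Figure D1:**
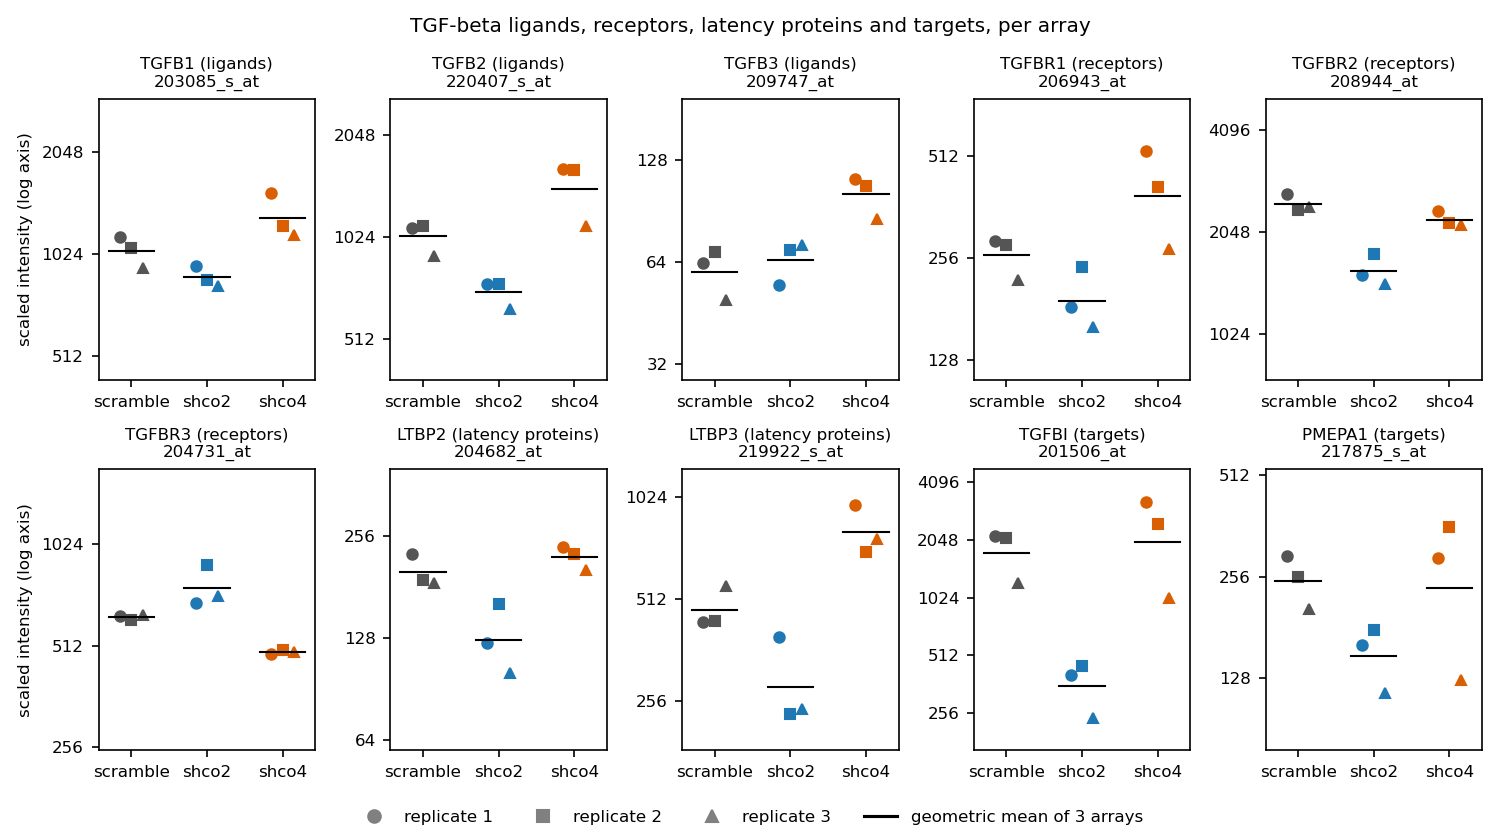
Scaled intensity (log axis) of each gene at its brightest probe set, for scramble, shco2 and shco4; each mark is 1 array, its shape the replicate number, and the line is the geometric mean of 3 arrays. LTBP3 runs from shco2 up through scramble to shco4 without overlap and TGFBR3 in the opposite order, while TGFBI with shco2 (240.1 to 449) lies below all other arrays.

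Among the ligands, TGFB2 differed between the hairpin lines by a factor of 2.02 and TGFB1 by a factor of 1.496. At the brightest TGFB2 probe set (220407_s_at) the scramble arrays read 1090, 1105 and 904, the shco2 arrays 745, 745 and 626, and the shco4 arrays 1623, 1613 and 1101. All shco2 arrays were below all scramble arrays, whereas the lowest shco4 array fell within the scramble range. The log2 difference was -0.55 ± 0.18 (SE, n = 3 against 3; limma adjusted p = 0.0762) for shco2 and 0.47 ± 0.18 (adjusted p = 0.123) for shco4 against scramble, neither of which passed. Shco4 was higher than shco2 by 1.02 ± 0.18 (adjusted p = 0.00538), a call kept with each of the 9 arrays left out.

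The TGFB2 probe sets 209909_s_at and 209908_s_at repeated the order of the line means at different brightness. At 209909_s_at the arrays read 733, 734 and 672 in scramble, 468, 537 and 498 with shco2, and 1061, 1072 and 726 with shco4. The shco2 arrays again lay below the rest, and shco4 exceeded shco2 by 0.91 ± 0.16 (limma adjusted p = 0.00519, kept with each array left out). At 209908_s_at, shco4 exceeded shco2 by 0.99 ± 0.32 without overlap of the arrays, but the adjusted p was 0.0598. It passed with dim probe sets left out (limma adjusted p = 0.0143), median centring (0.0409) and log2(intensity + 16) (0.0289). The remaining probe set, 220406_at, was dim at 9.69 to 41.0, with 3 arrays under the floor of 16 below which values were not told apart, and passed in no comparison. Its arrays overlapped between all lines. Same-numbered arrays of scramble and shco4 deviated together, and with their number as a block the rise of TGFB2 (220407_s_at) with shco4 passed (limma adjusted p = 0.0177). In that fit its fall with shco2 passed too (limma adjusted p = 0.0107). Leaving out shco4 replicate 3, the array that reads 1101, also made the rise pass (adjusted p = 0.0213), and the fall with shco2 then passed as well (adjusted p = 0.0207). That fall also passed with dim probe sets left out (limma adjusted p = 0.0273) and in a fit of only the 2 groups (0.0421). At 209909_s_at the fall with shco2 was -0.51 ± 0.16 (adjusted p = 0.0647). It passed in both these settings (0.0250 and 0.0127) and with median centring (0.0472).

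TGFB1, the ligand most often studied in cancer, was measured well by 1 of its 2 probe sets. At 203085_s_at the scramble arrays read 1146, 1063 and 931, the shco2 arrays 942, 857 and 825, and the shco4 arrays 1546, 1237 and 1166. Every shco4 array was above every scramble array, and 1 shco2 array lay inside the scramble range. Shco4 exceeded shco2 by 0.58 ± 0.13 (SE, n = 3 against 3; limma adjusted p = 0.0139), which was lost without shco2 replicate 3 (adjusted p = 0.0502). The difference from scramble was -0.26 ± 0.13 for shco2 (adjusted p = 0.238) and 0.33 ± 0.13 for shco4 (adjusted p = 0.138). With the replicate block the rise with shco4 passed (limma adjusted p = 0.0203), and so did the fall with shco2 (0.035). The dim probe set 203084_at (27.5 to 82.0) passed in no comparison.

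TGFB3 rose with shco4. Its probe set (209747_at) read 63.3, 68.5 and 49.3 in scramble, 54.5, 69.4 and 71.8 with shco2, and 112, 107 and 85.6 with shco4. The shco4 arrays stood above all 6 others, and the scramble and shco2 arrays overlapped. The rise was 0.76 ± 0.18 on the log2 scale, or 1.69-fold (n = 3 against 3; limma adjusted p = 0.0291), and was 0.11 ± 0.18 for shco2 (adjusted p = 0.80). The call was lost without scramble replicate 1 or 3 or shco4 replicate 1 or 2 (adjusted p = 0.0665 to 0.0886), and in a fit of only the 2 groups (0.0635). Against shco2 the difference was 0.64 ± 0.18 (adjusted p = 0.0332). That call was lost without scramble replicate 1, any 1 shco2 array, or shco4 replicate 1 or 2 (adjusted p = 0.0533 to 0.101), in a fit of only the 2 groups (0.051) and, with the block, at 0.0515.

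By role, the 7 ligand probe sets stand for 3 genes, 4 of them for TGFB2, and the 4 receptor probe sets also for 3 genes. Counts by role are thus of probe sets and not of separate genes. Between the hairpins, 4 of the 7 ligand probe sets passed in limma, all higher with shco4. Of the 4 receptor probe sets 2 were higher and 1 was lower, beside 14.9% of all probe sets higher and 16.1% lower. Against scramble with shco2, 0 of 7 ligand probe sets passed in limma, 2 of them having an unadjusted p under 0.05, and 1 of 4 receptor probe sets was lower, beside 9.95% of all probe sets. With shco4, 1 of 7 ligand probe sets was higher and 1 of 4 receptor probe sets was lower, beside 9.05% and 9.75% of all probe sets. With the replicate block, 3 of 7 ligand probe sets were higher with shco4 and the receptor call was lost, where 22.1% of all probe sets were called in either direction. In the same fit, 2 of 7 ligand and 2 of 4 receptor probe sets were lower with shco2, where 24.1% were called in either direction. Of the targets, TGFBI passed with shco2 and between the hairpins, and PMEPA1 in neither.

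TGFBR2, the receptor that binds ligand first, fell with shco2. Its brighter probe set (208944_at) read 2642, 2381 and 2432 in scramble, 1525, 1760 and 1434 with shco2, and 2367, 2172 and 2148 with shco4. The shco2 arrays were far below both other lines, and the shco4 arrays lay just below the scramble arrays without overlap. The log2 difference was -0.66 ± 0.09 for shco2, a 1.58-fold fall (n = 3 against 3; limma adjusted p = 0.00306, kept with each array left out), and -0.16 ± 0.09 for shco4 (adjusted p = 0.282). Shco4 exceeded shco2 by 0.51 ± 0.09 (adjusted p = 0.0048). The mean of both hairpins differed from scramble by -0.41 ± 0.07 on the log2 scale (limma adjusted p = 0.0151), the only member call in that comparison, and this was lost without scramble replicate 1 (adjusted p = 0.060). The dimmer probe set 207334_s_at read 335, 321 and 204 in scramble, 221, 229 and 140 with shco2, and 294, 339 and 155 with shco4. There the lines overlapped, and the difference with shco2 was -0.54 ± 0.37 (adjusted p = 0.419), so the probe sets differed in their call but not in sign. With the replicate block both were called lower with shco2 (limma adjusted p = 0.0243 for 207334_s_at and 0.00883 for 208944_at).

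TGFBR3, the co-receptor, was the 1 member that ran the other way. Its probe set (204731_at) read 625, 610 and 629 in scramble, 683, 883 and 715 with shco2, and 482, 496 and 490 with shco4. The lines did not overlap: shco4 was lowest, scramble in between and shco2 highest. Shco4 differed from shco2 by -0.63 ± 0.09 on the log2 scale (n = 3 against 3; limma adjusted p = 0.00259), which held with each array left out. The difference from scramble was 0.28 ± 0.09 for shco2 (adjusted p = 0.077) and -0.34 ± 0.09 for shco4 (adjusted p = 0.0431). The call with shco4 was kept only without shco2 replicate 1 or 2. It was lost with each of the other 7 arrays left out (adjusted p = 0.0633 to 0.114) with the replicate block (limma adjusted p = 0.0614) and under 4 other settings (0.0505 to 0.0687).

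TGFBR1, the kinase that carries the signal to the Smads, read 288, 280 and 220 in scramble, 183, 240 and 160 with shco2, and 529, 416 and 273 with shco4 (206943_at). The scramble arrays overlapped with both other lines, and every shco4 array was above every shco2 array. Shco4 exceeded shco2 by 1.03 ± 0.27 on the log2 scale, or 2.04-fold (n = 3 against 3; limma adjusted p = 0.0295). This was lost when the array left out was scramble replicate 2, shco2 replicate 1 or 3, or shco4 replicate 1 or 2 (adjusted p = 0.0506 to 0.0939), and in a fit of only the 2 groups (0.0778). Against scramble, the difference was -0.45 ± 0.27 for shco2 (adjusted p = 0.354) and 0.58 ± 0.27 for shco4 (adjusted p = 0.212).

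**Figure D2:**
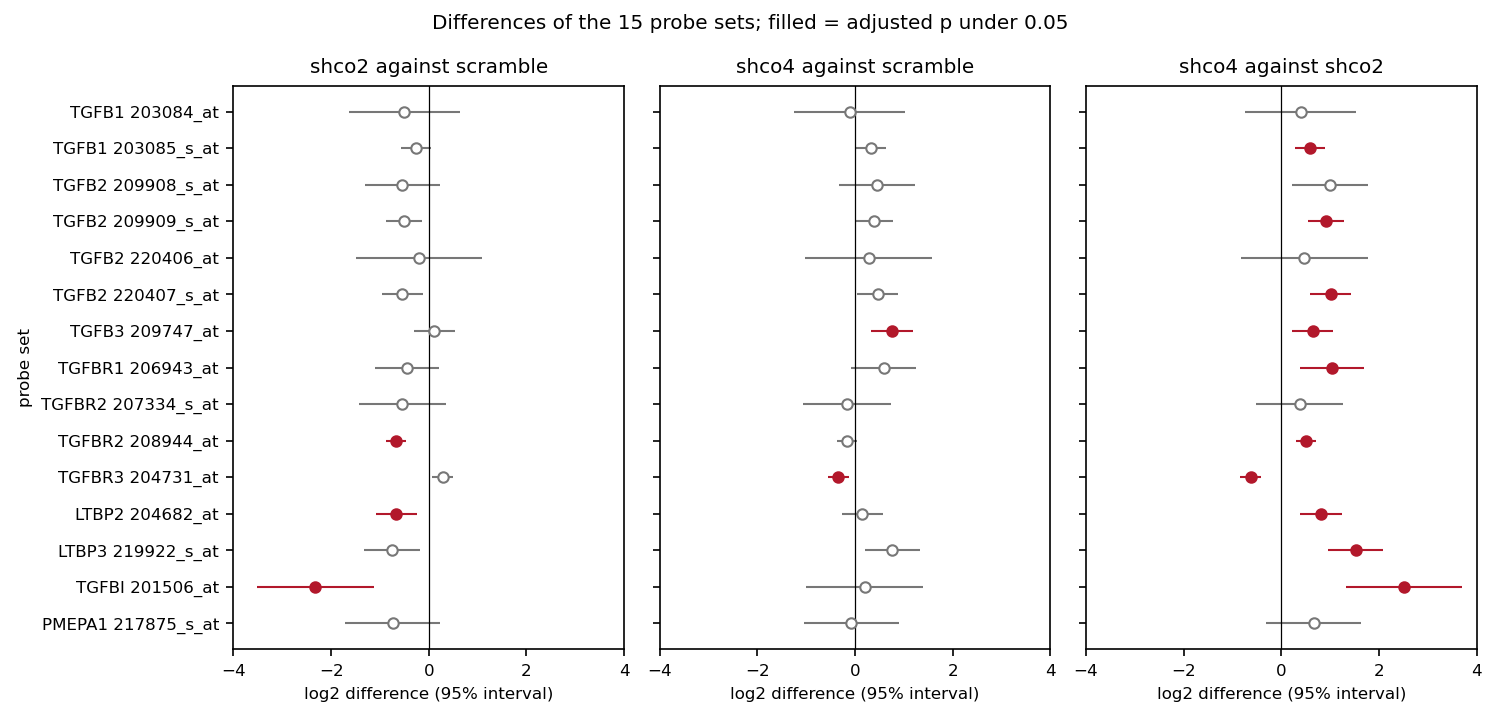
Log2 difference of the 15 member probe sets in each comparison; points are limma estimates, bars 95% intervals, and filled points have an adjusted p under 0.05. For shco4 against shco2, 14 of the 15 points lie above 0 and TGFBR3 lies below it, at -0.63.

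Both latency proteins among the members were higher with shco4 than with shco2. LTBP1, a relative outside the members, went the other way, at -0.48 ± 0.09 on the log2 scale (limma adjusted p = 0.00942). LTBP3, which binds the latent ligand, read 437, 439 and 558 in scramble, 394, 233 and 242 with shco2, and 966, 706 and 771 with shco4 (219922_s_at). The 3 lines were again apart, with shco2 lowest and shco4 highest. Shco4 exceeded shco2 by 1.52 ± 0.24 on the log2 scale, or 2.87-fold (n = 3 against 3; limma adjusted p = 0.00351), with each array left out too. The differences from scramble were -0.76 ± 0.24 for shco2 (adjusted p = 0.0713) and 0.77 ± 0.24 for shco4 (adjusted p = 0.0717). Both passed without shco2 replicate 1, the array that reads 394 (adjusted p = 0.0180 and 0.0255). They also passed with dim probe sets left out (limma adjusted p = 0.0201 and 0.0210) and with log2(intensity + 16) (0.0420 and 0.0400). The difference with shco4 passed with median centring too (0.0443).

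LTBP2, a matrix protein of the same family that does not bind latent TGF-beta itself, read 227, 190 and 186 in scramble, 124, 161 and 101 with shco2, and 237, 226 and 203 with shco4 (204682_at). The shco2 arrays were below all others. The fall was 1.58-fold, or -0.66 ± 0.18 on the log2 scale (n = 3 against 3; limma adjusted p = 0.0414). The call held only without shco2 replicate 2 and was lost with each of the other 8 arrays left out (adjusted p = 0.0598 to 0.119), and it was also lost with quantile normalization and in a fit of only the 2 groups (0.0519 and 0.0988). Shco4 differed from scramble by 0.15 ± 0.18 (adjusted p = 0.681) and exceeded shco2 by 0.81 ± 0.18 (adjusted p = 0.0135, kept with each array left out).

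TGFBI had the largest fold of the 15 member probe sets. It read 2139, 2086 and 1215 in scramble, 402, 449 and 240.1 with shco2, and 3241, 2467 and 1014 with shco4 (201506_at). The shco2 arrays were all far below the rest, and the shco4 arrays spread on both sides of the scramble range. With shco2 it was 5.00-fold lower, a log2 difference of -2.32 ± 0.50 (n = 3 against 3; limma adjusted p = 0.0196). The call was lost when 1 of 4 arrays was left out, namely scramble replicates 1 and 2 and shco2 replicates 1 and 3 (adjusted p = 0.0515 to 0.0654). Shco4 differed from scramble by 0.19 ± 0.50 (adjusted p = 0.936) and exceeded shco2 by 2.52 ± 0.50, or 5.72-fold (adjusted p = 0.00936, kept with each array left out).

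PMEPA1 did not pass in any comparison. It read 295, 256 and 205 in scramble, 161, 179 and 116 with shco2, and 289.6, 359.8 and 127 with shco4 (217875_s_at). The shco2 arrays were all below the scramble arrays, but shco4 replicate 3 was as low as they were. The differences were -0.74 ± 0.41 for shco2 (n = 3 against 3; limma adjusted p = 0.29) and -0.07 ± 0.41 for shco4 (adjusted p = 1) against scramble. Shco4 exceeded shco2 by 0.66 ± 0.41 (adjusted p = 0.302), with an interval of -0.31 to 1.64, and this passed without shco4 replicate 3 (adjusted p = 0.0232).

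A low replicate 3 array recurred across the members. In 8 of the 15 probe sets replicate 3 was the lowest array in all 3 lines, which held for 6.16% of all probe sets. These were TGFB1 (203085_s_at), TGFB2 (209908_s_at and 220407_s_at), TGFBR1, TGFBR2 (207334_s_at), LTBP2, TGFBI and PMEPA1. Within a line, replicate 3 was lowest in 11 of 15 for scramble, 9 of 15 for shco2 and 12 of 15 for shco4, against 24.5%, 20.9% and 27% of all probe sets. All these shares are held down by arrays tied at the floor of 16, where no array can be lowest. They include 2611 probe sets at the floor on all arrays. What the replicate numbers share is not stated in the labels, and its part in the results was not tested.

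**Figure D3:**
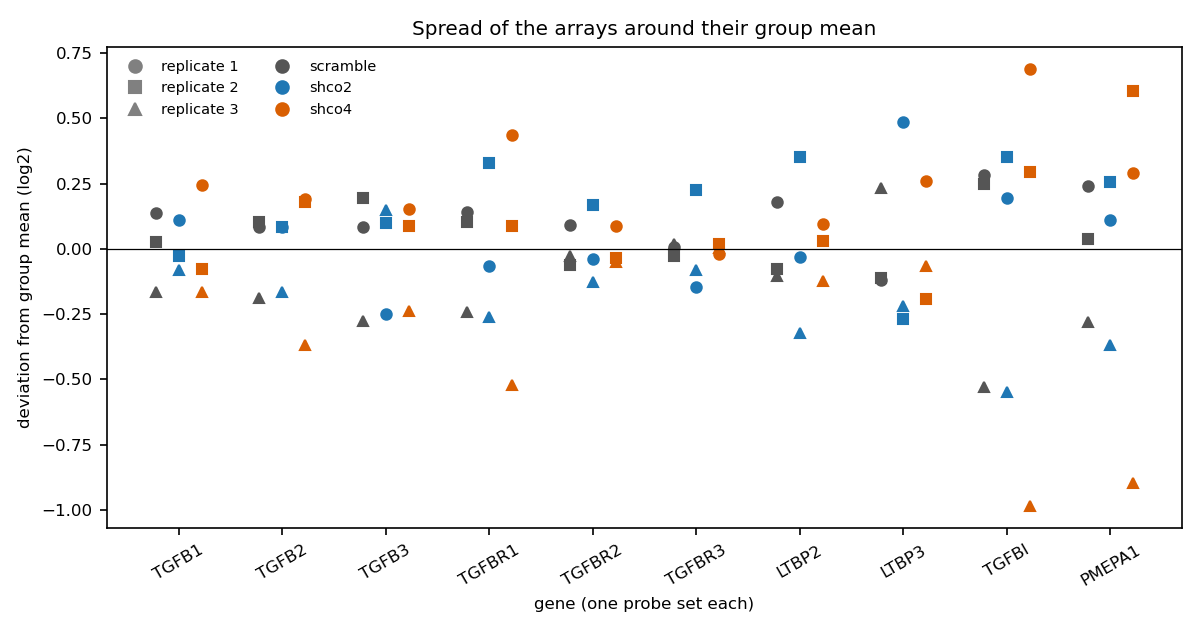
Deviation of each array from its group mean (log2) at the brightest probe set of each member gene; colour is the line and shape the replicate number. Replicate 3 lies below 0 in all 3 lines for TGFB1, TGFB2, TGFBR1, TGFBR2, LTBP2, TGFBI and PMEPA1.

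Over the 9 arrays, the genes whose brightest probe set followed each member most closely were, for TGFB1, RNF43 (Pearson r = 0.989) and PACSIN2 (0.986). For TGFB2 they were CHMP1B (0.992) and KAT6B (0.988), and for TGFB3 YOD1 (0.959) and STUB1 (0.951). COL5A1 (0.993) and PLAC8 (0.992) followed TGFBR2, and UFC1 (0.969) and RLIG1 (0.967) followed TGFBR3. DDIT4 (0.983) and NNMT (0.973) followed LTBP2, PTPRU (0.981) and MYO9B (0.978) followed LTBP3, and EDIL3 (0.995) and IFNAR1 (0.988) followed TGFBI. These values describe a shape over 9 arrays that fall into 3 lines, picked from 10870 genes. TGFBR1 and PMEPA1 missed the threshold of the overall F-test of limma that this choice required (adjusted p = 0.0624 and 0.359), so no genes were named for them.

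The other genes of the pathway moved in both directions. Counts are at 1 probe set per gene, the brightest, where 13.3% of 11963 genes were higher and 11% lower with shco2, 10.7% and 11.5% with shco4, and 16% and 19.3% for shco4 against shco2; the median over all genes was 0. Of 8 measured genes for latency and activation, 2 passed with shco2 and 2 with shco4, all as lower (medians -0.17 and -0.07). ITGAV, an integrin chain that helps to free the latent ligand, fell by 0.60 ± 0.12 with shco2 (limma adjusted p = 0.0152). MMP14, a membrane protease, fell by 0.64 ± 0.17 with shco2 (adjusted p = 0.0431). LTBP1, which binds the latent ligand, fell by 0.65 ± 0.09 (adjusted p = 0.00572) and FURIN, the protease that cleaves the ligand's propeptide, by 0.79 ± 0.15 (adjusted p = 0.0161), both with shco4. The call of MMP14 was kept only without shco4 replicate 1 or 3 (adjusted p up to 0.128 otherwise) and was lost with a floor of 64 (0.0504). The call of FURIN was lost without scramble replicate 2 or shco4 replicate 1 (adjusted p up to 0.0578). Between the hairpins, 2 of the 8 were higher and 2 lower with shco4 (median 0.26).

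Of 8 genes that act at the receptors, 1 was higher and 2 were lower with each hairpin (medians -0.02 with shco2 and -0.05 with shco4). FKBP1A, which binds and restrains the type I receptor, fell by 0.66 ± 0.04 with shco2 (limma adjusted p = 0.00038), rose by 0.40 ± 0.04 with shco4 (adjusted p = 0.00212) and was 1.07 ± 0.04 higher with shco4 than with shco2 (adjusted p = 4.26e-05). DAB2, an endocytic adaptor, fell by 0.58 ± 0.15 with shco2 (adjusted p = 0.0356), and STRAP, a receptor-associated protein, rose by 0.27 ± 0.07 (adjusted p = 0.0341). The DAB2 call was kept only without scramble replicate 3 or shco2 replicate 2 (adjusted p up to 0.102 otherwise), and the STRAP call was kept only with scramble replicate 2 or shco4 replicate 1 or 2 left out (adjusted p up to 0.103 otherwise). The STRAP call was also lost with median centring (limma adjusted p = 0.0598), with dim probe sets left out (0.0518) and with log2(intensity + 16) (0.0954), and the DAB2 call in a fit of only the 2 groups (0.0859). BAMBI, a decoy receptor, fell by 0.53 ± 0.12 with shco4 (adjusted p = 0.0269; up to 0.0823 without scramble replicate 1 or 2, and 0.0657 in a fit of only the 2 groups), and TGFBRAP1, a receptor-associated protein, fell by 1.01 ± 0.11 (adjusted p = 0.00212). Between the hairpins, 2 of the 8 were higher and 4 lower with shco4 (median -0.07).

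Of 12 genes for Smads, corepressors and ubiquitin ligases, 2 were higher and 2 lower with shco2, and 2 passed with shco4, both as higher (medians 0.00 and 0.04). SMAD3, which carries the signal to the nucleus, fell by 0.90 ± 0.11 with shco2 (limma adjusted p = 0.0023) and was 0.86 ± 0.11 higher with shco4 than with shco2 (adjusted p = 0.00139). TGIF1, a corepressor, fell by 0.61 ± 0.07 with shco2 (adjusted p = 0.00167), and its relative TGIF2 rose by 0.53 ± 0.11 (adjusted p = 0.0171; lost without scramble replicate 2 or 3, up to 0.0565). SMURF2, a ubiquitin ligase that targets the receptor, rose by 0.53 ± 0.09 with shco2 (adjusted p = 0.00708) and by 0.53 ± 0.09 with shco4 (adjusted p = 0.00822), comparisons that share the scramble arrays. The inhibitory SMAD6 rose by 0.93 ± 0.19 with shco4 (adjusted p = 0.0191; up to 0.0576 without scramble replicate 2 or shco4 replicate 1). The inhibitory SMAD7 was 1.201 ± 0.21 higher with shco4 than with shco2 (adjusted p = 0.0054). Its difference from scramble with shco4 was 0.73 ± 0.21 (adjusted p = 0.0555), which passed with the replicate block (limma adjusted p = 0.0195). Between the hairpins, 4 of the 12 were higher and 1 lower with shco4 (median 0.04).

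**Figure D4:**
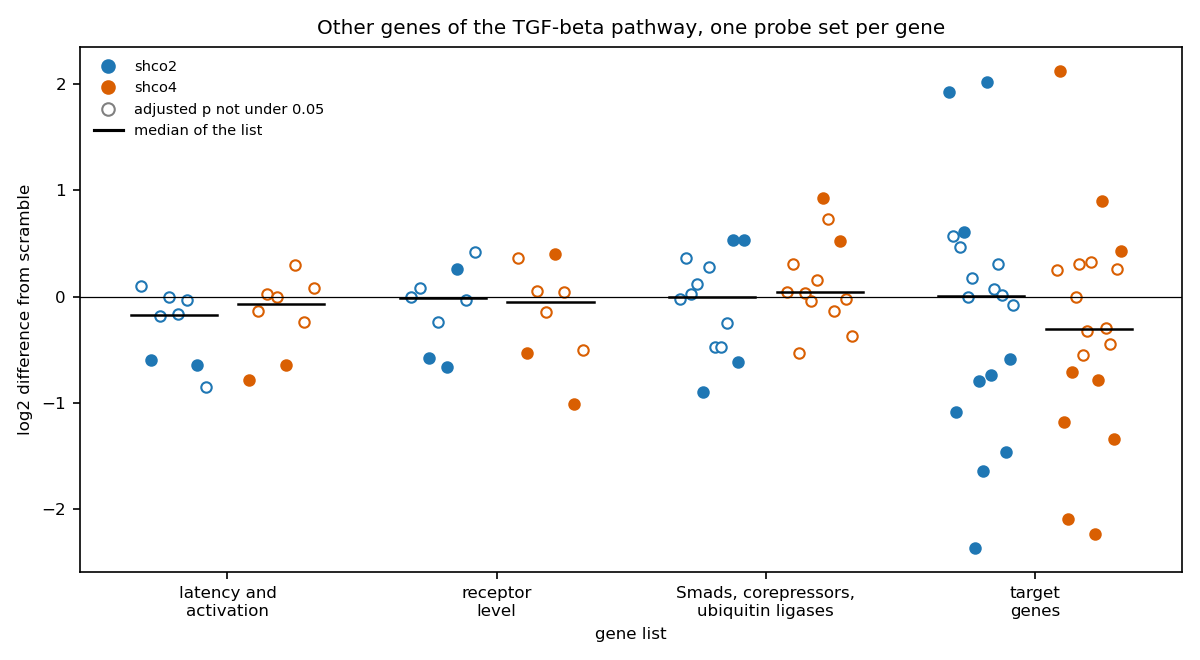
Log2 difference from scramble of other TGF-beta pathway genes, 1 probe set per gene, in 4 lists; colour is the hairpin, filled points have a limma adjusted p under 0.05, and lines mark the list medians. Points lie on both sides of 0 in each list, and the list medians run from -0.31 to 0.04.

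Of 18 measured target genes other than TGFBI and PMEPA1, 3 were higher and 7 lower with shco2, and 3 were higher and 6 lower with shco4 (medians 0.01 and -0.31). BHLHE40, a transcriptional repressor, fell by 1.09 ± 0.11 with shco2 (limma adjusted p = 0.00126) and by 1.18 ± 0.11 with shco4 (adjusted p = 0.00115). TGFB1I1, a focal adhesion protein, fell by 1.47 ± 0.15 (adjusted p = 0.00135) with shco2 and fell by 1.34 ± 0.15 (adjusted p = 0.00212) with shco4. The integrin chain ITGB5 fell by 0.74 ± 0.08 with shco2 (adjusted p = 0.00204) and fell by 0.78 ± 0.08 with shco4 (limma adjusted p = 0.00197). COL1A2, a chain of type I collagen, fell by 2.36 ± 0.24 with shco2 (adjusted p = 0.00147), while ACTA2, smooth muscle actin, rose by 1.93 ± 0.21 (adjusted p = 0.00185). CDKN1A, a cell cycle inhibitor, rose by 0.61 ± 0.11 with shco2 (adjusted p = 0.0107) and fell by 0.71 ± 0.11 with shco4 (adjusted p = 0.00721). These 6 genes kept their calls with each array left out. Between the hairpins, 5 of the 18 were higher and 5 lower with shco4 (median 0.06).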

How the data were processed

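The authors deposited 1 table of linear intensities, 1 column per array; the values show that they were scaled to a trimmed mean of about 500.1 on each array. How the probes were summarised, and with which software, is not given in the sources used here. Per the labels, groups and replicate numbers are those of the submitters; 0 columns were left unmapped. Values below a floor of 16 were raised to it before log2 was taken; 22215 probe sets were tested without a filter, after removal of 62 controls. A mean per line was fitted with lmFit and eBayes (limma 3.58.1, R 4.3.3), two-sided, with Benjamini-Hochberg adjustment. A gene's brightest probe set is the one with the highest mean log2.

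The members and lists were chosen with earlier results of these data known. All member probe sets are named; other genes come from 4 pathway lists, up to 4 per list and hairpin by smallest p, and the 2 most alike per member. SMAD7 was named after its values were seen. Markers were lists of the same kind.

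Deviations of arrays with the same number had r of 0.133 to 0.235 for scramble with shco4, which counts as pairing. They had 0.0571 to 0.29 for scramble with shco2, and 0.0576 to 0.213 for shco2 with shco4, so that not every pair reached 0.1. On simulated data for shco2 against scramble, with 22215 probe sets, 25.4%, 53.7% and 92.4% of probe sets changed by 0.5, 1 and 2 (log2) were called, with 14 false calls. Only 67, 67 and 66 probe sets were changed, all with a mean scramble level above 64, and the noise had no pairing. In the data 20.7% of all probe sets were called in this comparison, so these rates are not those of the reported tests. Alternatives were quantile normalization, median centring, a floor of 64, log2(intensity + 16), leaving out dim probe sets, a variance trend with robust estimation, only the 2 groups compared, the replicate block and each array left out.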

Additional observations from a re-analysis of the deposited data

Results flagged for a closer look

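In 9 of the 10 member genes the effects of the 2 hairpins differed in the limma test of shco4 against shco2, where, at 1 probe set per gene, 16% of all genes were higher and 19.3% lower. The test is the difference of their effects relative to the shared scramble arrays. The log2 difference was 0.58 for TGFB1 (203085_s_at), 1.02 for TGFB2 (220407_s_at), 0.64 for TGFB3, 1.03 for TGFBR1, 0.51 for TGFBR2 (208944_at), -0.63 for TGFBR3, 0.81 for LTBP2, 1.52 for LTBP3 and 2.52 for TGFBI. TGFBR3 is the only one of the 9 with a value below 0.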

How the results depend on the processing

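With shco2, 3 of the 15 member probe sets passed; the count was 6 with dim probe sets left out, 6 with the replicate block and 1 to 4 with each array left out (1 without scramble replicate 1, scramble replicate 2 or shco2 replicate 3). With shco4 the count of 2 became 1 with quantile normalization, 1 with a floor of 64, 1 with only the 2 groups compared, 3 with the block and 0 to 3 with each array left out (0 without scramble replicate 1 or 3 or shco4 replicate 1 or 2, and 1 without scramble replicate 2 or shco2 replicate 3). For the mean of both hairpins the count of 1 became 2 with dim probe sets left out, 2 with the block and 0 to 1 with each array left out. For shco4 against shco2 the count of 10 ran from 7 to 12 with each array left out. Where a group kept 2 arrays, its spread was pooled with the other lines.

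The median member difference between the hairpins, 0.66, was 1.12 within number 1, 0.79 within number 2 and 0.55 within number 3, an alternative chosen after seeing the data. In 18 of 18 cases an array's deviations correlated most with those of its own number, a hint from the data and not from the design. For shco2 against scramble, the block made TGFB1 (203085_s_at, 0.035), TGFB2 (220407_s_at, 0.0107) and TGFBR2 (207334_s_at, 0.0243) pass (limma adjusted p). It also made TGFBI (0.0233) pass for the mean and TGFB2 (209908_s_at, 0.00895) between the hairpins, where TGFB3 (0.0515) and ITGAV (0.0507) were lost (limma adjusted p).

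Signs turned only for differences that were not called. TGFB1 (203084_at) with shco4 was 0.072 with a floor of 64. With each array left out, the difference with shco4 ran from -0.40 to 0.40 for TGFB1 (203084_at), from -0.037 to 0.71 for TGFB2 (220406_at), from -0.38 to 0.37 for PMEPA1, from -0.15 to 0.69 for TGFBI and from -0.40 to 0.17 for TGFBR2 (207334_s_at). With shco2 the difference ran from -0.63 to 0.021 for TGFB2 (220406_at) and from -0.025 to 0.24 for TGFB3. The call of TGFBR3 with shco4 was lost with quantile normalization (0.0606), median centring (0.0592), a floor of 64 (0.0505) and log2(intensity + 16) (0.0687), and that of LTBP2 with shco2 with quantile normalization (0.0519) and only the 2 groups compared (0.0988). The causes were not tested. TGFB2 (220406_at) lay at the floor of 64 on all arrays, so it shows no difference there.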

Other observations

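Among the target genes of the lists, IL11 and CCN2 were singled out after their values were seen. IL11, a secreted cytokine, had a mean intensity of 649 in scramble, 2544 with shco2 and 152 with shco4. Shco4 differed from shco2 by -4.26 ± 0.53 on the log2 scale (n = 3 against 3; limma adjusted p = 0.00147, kept with each array left out). Against scramble it rose by 2.02 ± 0.53 with shco2 (adjusted p = 0.0408) and fell by 2.23 ± 0.53 with shco4 (adjusted p = 0.0315), and each of these calls was lost with 7 of the 9 arrays left out (adjusted p up to 0.120 and 0.0989). The first was kept only without shco4 replicate 1 or 2, and the second only without scramble replicate 3 or shco4 replicate 2. The second was also lost in a fit of only the 2 groups (limma adjusted p = 0.0908).

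CCN2, a matricellular protein, had a mean intensity of 2023 in scramble, 2789 with shco2 and 540.0 with shco4, and differed by -2.56 ± 0.45 on the log2 scale between shco4 and shco2 (limma adjusted p = 0.00566, kept with each array left out). With shco4 it fell by 2.09 ± 0.45 relative to scramble (adjusted p = 0.0214), which was lost without any 1 scramble array or shco4 replicate 2 (adjusted p up to 0.0659), and in a fit of only the 2 groups (0.0751). Between the hairpins both genes thus had the opposite sign to TGFBI, at 2.52 ± 0.50. Of the 18 measured target genes, however, 5 were higher and 5 lower with shco4 than with shco2. Among the higher, with the sign of TGFBI, were FN1 at 1.96 ± 0.23 (limma adjusted p = 0.00123) and COL1A2 at 1.81 ± 0.24 (adjusted p = 0.00187).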
